A study of Mus musculus with 2 samples.

Results

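The genes described here encode the chemokines that draw neutrophils into tissue, the growth factor that raises their number, and the receptors for both on the neutrophil itself. They were chosen by symbol as *Cxcl1*, *Cxcl2*, *Cxcl3*, *Cxcl5* and *Csf3* (ligands) and *Cxcr2*, *Cxcr4* and *Csf3r* (receptors), 8 of the 31053 genes in the count files, and all 8 were found. Single-cell RNA-seq was run on live CD45+ cells, that is, leukocytes, sorted from *Ptgs*-deficient *Braf*-driven melanomas of C57BL/6 mice on day 4 after injection. *Ptgs* genes encode the cyclooxygenases of prostaglandin synthesis. Hosts were 8 weeks old and were either untreated (control) or depleted of NK cells with 200 µg of anti-NK1.1 and 30 µg of anti-asialo GM1 antibody on days 0 and 2. Each library came from the combined tumors of its group, so there was 1 library per group, and parental melanoma cells were added to both. The genotype label of both samples gives wild-type tumor cells, whereas titles and series design name the knockout. This conflict does not separate the groups.

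CXCL1, CXCL2, CXCL3 and CXCL5 are secreted by macrophages, stromal cells and neutrophils and bind CXCR2, which guides neutrophils from blood into inflamed tissue. Granulocyte colony-stimulating factor (G-CSF), the product of *Csf3*, acts through the receptor encoded by *Csf3r* to promote neutrophil production in the bone marrow and their release. CXCR4, the receptor for CXCL12, holds neutrophils in the marrow, is also found on many other leukocytes, and is more abundant on aged neutrophils.

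*Cxcl5*, *Cxcl3*, *Cxcl1* and *Cxcl2* lie in this order within 146579 bases of chromosome 5 (90759360 to 90905938, plus strand, GRCm38, GENCODE M21). *Csf3* lies on chromosome 11 (98701263 to 98703629), *Cxcr2* on chromosome 1 (74153989 to 74161246) and *Csf3r* on chromosome 4 (126024550 to 126044440), all on the plus strand, and *Cxcr4* on the minus strand of chromosome 1 (128588199 to 128592293). Promoters are shown for *Cxcl1*, *Cxcl2* and *Cxcl3*, the ligands not near the limit of detection, because these neighboring genes differed between the libraries. Each stretch is 200 bases of RefSeq sequence (GRCm38.p6, plus strand, 228 to 29 bases before the start site): chr5:90891017-90891216 for *Cxcl1*, chr5:90903671-90903870 for *Cxcl2* and chr5:90785873-90786072 for *Cxcl3*. Capitals mark the matches to the kappaB consensus, the motif bound by NF-κB.
*Cxcl1*: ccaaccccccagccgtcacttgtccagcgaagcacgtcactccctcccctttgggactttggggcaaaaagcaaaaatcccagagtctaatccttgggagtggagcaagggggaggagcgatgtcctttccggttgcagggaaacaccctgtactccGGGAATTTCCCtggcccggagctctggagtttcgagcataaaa
*Cxcl2*: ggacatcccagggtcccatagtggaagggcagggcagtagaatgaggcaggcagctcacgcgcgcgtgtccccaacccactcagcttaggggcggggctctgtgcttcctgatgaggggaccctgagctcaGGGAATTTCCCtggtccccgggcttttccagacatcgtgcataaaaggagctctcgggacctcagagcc
*Cxcl3*: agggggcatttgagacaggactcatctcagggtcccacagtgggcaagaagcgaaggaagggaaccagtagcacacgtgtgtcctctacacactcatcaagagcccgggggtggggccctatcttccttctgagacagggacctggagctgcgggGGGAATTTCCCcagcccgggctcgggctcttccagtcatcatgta

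All 3 promoters hold the same 11 capital letters, which match the kappaB consensus on both strands in overlapping positions. The run begins 71 bases before the start site of *Cxcl1*, 97 bases before that of *Cxcl2* and 73 bases before that of *Cxcl3*. Searched on both strands of windows from 250 bases before to 50 bases after a start site, the consensus was present in 8.46% of 32851 mouse promoters. Promoter sequences were given for 6 of the 8 genes, and of these *Csf3r* also held 1 match, while *Cxcr2* and *Cxcr4* held 0.

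Filtered cells numbered 5292 of 6115 in the control library (24810009 UMIs, unique molecular identifiers that each count 1 transcript molecule) and 4506 of 5536 after depletion (23245982 UMIs). Median depth was 4170 and 4893 UMIs per cell, and 5 cell barcodes occurred in both libraries. Levels are given as CPM, a gene's UMIs per 1000000 UMIs of the cells named, and ratios are NK cell-depleted over control. With 1 library per group there is no replicate check. All intervals are 95% intervals for counting error only, treat UMIs as independent, and describe this pair of libraries.

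Cells were grouped into 20 clusters without use of these genes and named from marker genes. Neutrophil-like cells (clusters led by *S100a8*, *S100a9* and *G0s2*) carried UMIs of all 16 neutrophil markers in both libraries, though *Ly6g* had only 4 and 12. They made up 7.03% of control cells (372 cells, interval 6.36% to 7.75%) and 10.5% of NK cell-depleted cells (473 cells, 9.62% to 11.4%), a ratio of 1.49 (1.30 to 1.72). NK-like cells numbered 544 in the control and 1 after depletion, and with them left out of the total the neutrophil ratio was 1.34 (1.17 to 1.54). A further 50 and 35 shallow cells (cluster 16, led by *Gm5483*, *Hcar2* and *Inhba*) showed 14 of the 16 neutrophil markers above other cells but stayed unnamed, since none ranked among its 10 leading genes. Counting them as neutrophils gave a ratio of 1.41 (1.24 to 1.61). The question below is whether the recruiting ligands and their receptors differed along with this larger neutrophil share.

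**Figure D1:**
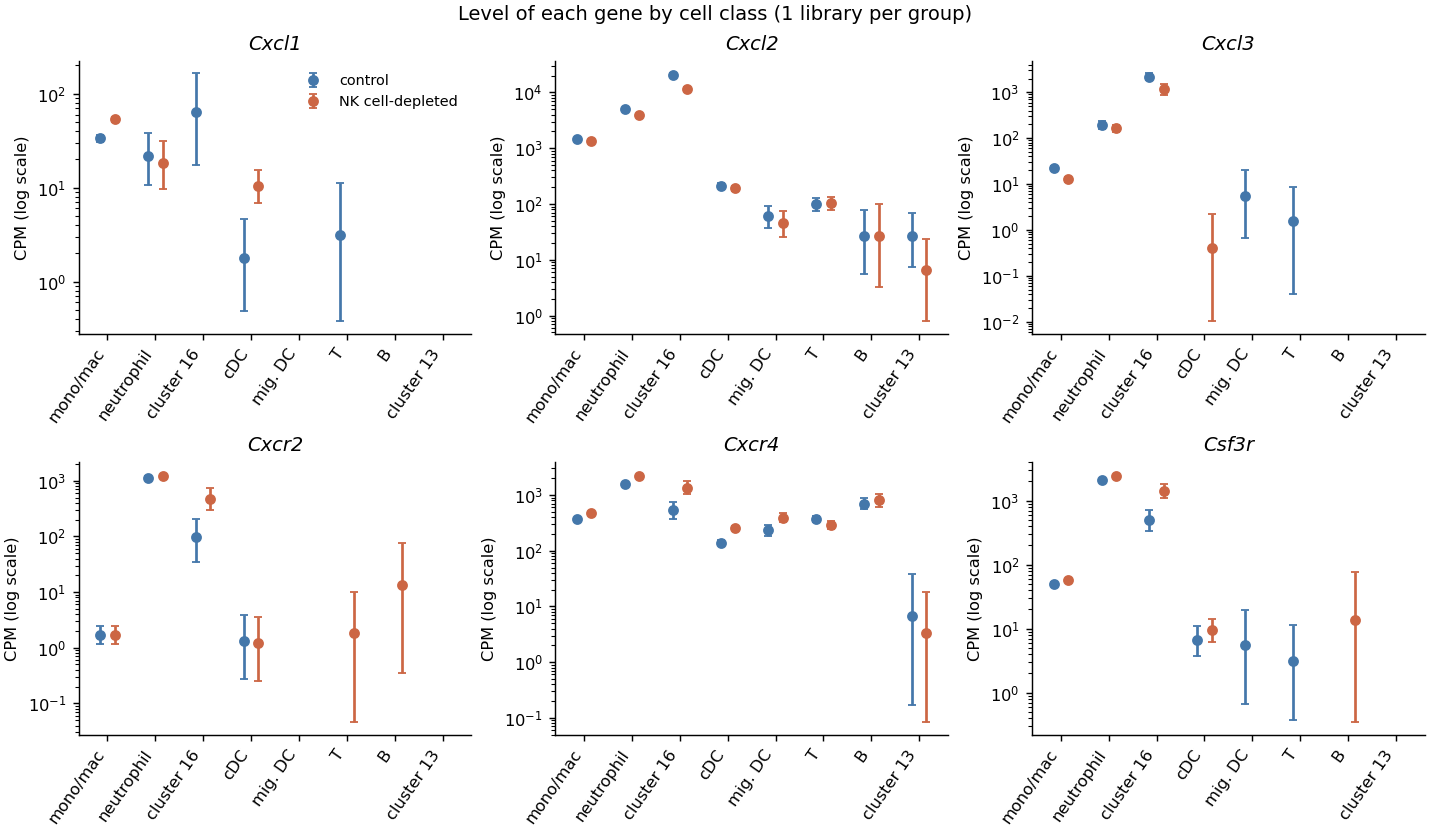
Level of 6 genes in CPM (log scale) by cell class, with 1 point per library (control blue, NK cell-depleted orange) and 95% Poisson intervals; classes with 0 UMIs have no point. Eosinophil-like and NK-like cells and cluster 18 are not shown. *Cxcr2* and *Csf3r* peak in neutrophil-like cells, *Cxcl2* and *Cxcl3* in cluster 16, and *Cxcr4* lies above 100 CPM in all classes shown other than cluster 13.

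*Cxcl1*, a main neutrophil chemoattractant of macrophages, was found mainly in clusters named monocyte/macrophage-like and was higher after NK cell depletion. These cells held 641 UMIs (33.5 CPM, 30.9 to 36.2) in the control and 993 (53.3 CPM, 50.04 to 56.72) after depletion, a ratio of 1.59 (1.44 to 1.76). They carried 96.7% of all *Cxcl1* UMIs in the control and 95.8% after depletion, 96.2% over both libraries, but 45.7% with each cell called by its own markers instead of its cluster. Few cells carried the transcript. A UMI was found in 154 of 3470 cells (4.44%, 3.78% to 5.18%) of the control and in 167 of 3162 (5.28%, 4.53% to 6.12%) of the NK cell-depleted library, while UMIs per such cell were 4.16 and 5.95. With every cell thinned to 2000 UMIs the shares were 2.91% and 3.63%. Free RNA was gauged in T-like cells, where 2 of 288 control cells (0.694%) and 0 of 221 NK cell-depleted cells, which allows up to 1.36%, had a UMI. Thinned to the same 2000 UMIs, the T-like share was 1.26% in the control and 0 of 143 cells after depletion, which allows up to 2.10%. Without thinning T-like cells were shallower, with medians of 2082.5 and 2327 UMIs against 5026 and 5466 in monocyte/macrophage-like cells.

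The *Cxcl1* difference was not shared by all macrophage clusters. It was higher beyond counting error in 4 of 9 clusters, lower in 1 and within counting error in the others. The cluster led by *Ccl8*, *Lyve1* and *Gas6*, markers of resident macrophages among them, had 36.2 CPM in the control and 90.6 after depletion (ratio 2.50, 2.03 to 3.103). The cluster led by *Retnla*, *Il6* and *Lyz1* had 42.7 and 95.5 CPM (2.24, 1.60 to 3.18), and the largest over both libraries, led by *Pf4*, *Spp1* and *Arg1*, had 44.3 and 85.3 CPM (1.92, 1.60 to 2.31). The cluster led by *Gm9733*, *Ly6c2* and *Vcan* had few, 3 and 34 UMIs (4.05, 1.27 to 20.6). In contrast, the cluster led by *Gpnmb*, *Rhov* and *Procr* had 28 UMIs (38.9 CPM) and 5 UMIs (7.22 CPM), a ratio of 0.186 (0.0560 to 0.487). The cluster led by *Slc7a2*, *AA467197* and *Dcstamp* held the highest control level, 46.5 CPM, and 46.0 CPM after depletion (0.989, 0.762 to 1.28). Neutrophil-like cells held 11 *Cxcl1* UMIs in 2 control cells, both of the smaller of their clusters, and 13 in 4 cells of the larger cluster after depletion. The smaller cluster had a median of 6757.5 UMIs per cell against 1235 in the larger. Without cells carrying markers of another class and Scrublet calls, or without the highest 5% of Scrublet scores, 0 and 13 UMIs remained.

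**Figure D2:**
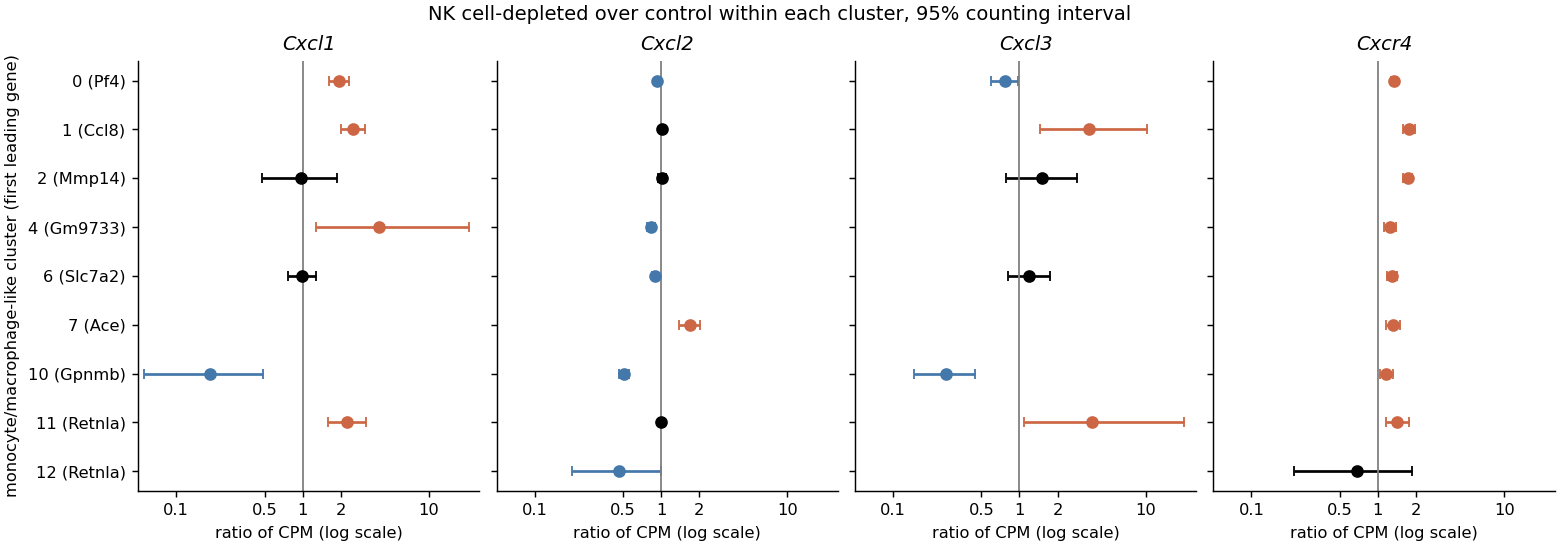
Ratio of CPM, NK cell-depleted over control (log scale), in the 9 monocyte/macrophage-like clusters, with 95% counting intervals; orange points lie above 1 beyond counting error, blue points below, black points within it, and clusters with under 20 UMIs of a gene are left out. *Cxcl1* ran from 0.186 in the *Gpnmb* cluster to 2.50 in the *Ccl8* cluster and 4.05, with a wide interval, in the *Gm9733* cluster, while *Cxcr4* was above 1 in 8 of 9.

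*Cxcl2*, which like *Cxcl1* signals through CXCR2, was spread over many more cells and did not follow *Cxcl1*. Monocyte/macrophage-like cells carried 28276 UMIs (1477 CPM) in the control and 25196 (1353 CPM) after depletion, a ratio of 0.916 (0.900 to 0.931), with 85.7% and 86.0% of all *Cxcl2* UMIs (34.1% over both libraries with calls made cell by cell). In neutrophil-like cells the level was 5119 CPM in the control (4925 to 5319) and 3985 CPM after depletion (3840 to 4135), a ratio of 0.779 (0.738 to 0.821). Both neutrophil-like clusters were lower, with 5454 and 4240 CPM in the larger and 3005 and 2318 CPM in the deeper, smaller one. A UMI was found in 64.8% of control and 68.3% of NK cell-depleted neutrophil-like cells, so the lower level came with fewer UMIs per such cell, 10.8 and 8.79. At 500 UMIs per cell these shares were 55.1% (49.9% to 60.2%) and 53.7% (49.1% to 58.3%). B-like cells, of like depth (medians 1596.5 and 1730 UMIs, against 1170 and 1316 in neutrophil-like cells), had a UMI in 5.36% and 5.26%. Thinned to 2000 UMIs, where only 14 and 33 neutrophil-like cells remain, the log2 ratio turned from -0.36 to 0.70.

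Cluster 16 had the highest *Cxcl2* level of all in both libraries, 20669 CPM in the control and 11450 CPM after depletion, a ratio of 0.554 (0.499 to 0.615). Of its cells, 48 of 50 and 27 of 35 had a *Cxcl2* UMI. Eosinophil-like cells, few and shallow, numbered 12 (0.227%) in the control and 70 (1.55%) after depletion, a ratio of 6.85 (3.69 to 13.9). They had 47 and 129 *Cxcl2* UMIs (3396 and 2676 CPM, 0.788, 0.560 to 1.13), a level above that of monocyte/macrophage-like cells. Their *Cxcl3* UMIs were 4 and 10 (289 and 207 CPM), within counting error. Across the macrophage clusters *Cxcl2* was lower beyond counting error in 5 of 9 and higher in 1. The lowest ratio among clusters with over 100 UMIs was again in the *Gpnmb* cluster, 1884 and 965 CPM (0.512, 0.466 to 0.562). The 1 cluster with a higher level, led by *Ace*, *Chil3* and *Cd177*, had 176 and 296 CPM (1.68, 1.40 to 2.04).

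*Cxcl3*, a close paralog of *Cxcl2*, was lower after NK cell depletion as a whole, with 662 UMIs (26.7 CPM) in the control and 415 (17.9 CPM) after depletion. In monocyte/macrophage-like cells 420 UMIs (21.9 CPM, 19.9 to 24.1) stood against 236 (12.7 CPM, 11.1 to 14.4), a ratio of 0.577 (0.490 to 0.679), in 135 and 92 cells. Lower clusters were the *Gpnmb* cluster (98.5 and 26.0 CPM, 0.264) and the *Pf4* cluster (42.5 and 32.6 CPM, 0.766), whereas the *Ccl8* cluster had 6 and 34 UMIs (3.52, 1.46 to 10.3) and the *Retnla*, *Il6* and *Lyz1* cluster 3 and 17 UMIs (3.76, 1.09 to 20.02). *Cxcl3* was higher beyond counting error in 3 of 9 clusters and lower in 2. With clusters weighted equally between libraries, the log2 ratio was -0.18 in place of -0.79. In neutrophil-like cells the level was 194 and 163 CPM, within counting error (0.840, 0.637 to 1.11). The log2 ratio, -0.25 there, was -0.67 (-0.94 to -0.40) with calls made cell by cell and -0.88 (-1.18 to -0.59) with cluster 16 counted as neutrophils, both beyond counting error. Cluster 16 had 2181 and 1184 CPM (0.543, 0.386 to 0.752), the highest level of *Cxcl3* in either library. The transcripts of *Cxcl2* and *Cxcl3* share exact runs of up to 157 bases, against at most 23 bases between *Cxcl1* and either. These runs lie at least 732 bases from the 3′ end in all their annotated transcripts other than a *Cxcl2* transcript of 397 bases.

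*Cxcl5* and *Csf3* were near the limit of detection. *Cxcl5*, in other settings a product of epithelial cells, had 2 UMIs in the control and 1 after depletion, a ratio of 0.534 with an interval from 0.00905 to 10.3. *Csf3* had 16 UMIs in 8 control cells and 47 UMIs in 17 NK cell-depleted cells. Monocyte/macrophage-like cells held 7 UMIs in 4 cells (0.366 CPM) and 34 UMIs in 16 cells (1.83 CPM), a ratio of 4.99 (2.18 to 13.3). The 5 cells with the most UMIs carried 58.8% of the 34, and without the 5 such cells of each library 0 and 14 UMIs remained. The *Ccl8* cluster held 0 and 11 of them, at least 2.28-fold higher against a floor of 3 UMIs, and the *Retnla*, *Il6* and *Lyz1* cluster 3 and 15. Neutrophil-like cells held 7 UMIs in 2 cells and 13 UMIs in 1 cell.

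Among the 7 genes with at least 20 UMIs in monocyte/macrophage-like cells, *Cxcl1* and *Csf3* were higher by at least 1.5-fold, where 3.76% of 11810 genes were, and *Cxcl3* was lower by as much, where 8.16% were. In neutrophil-like cells 0 of the 7 passed 1.5-fold in either direction, against 10.3% higher and 11% lower of 5250 genes. Among genes with at least 100 UMIs the shares were 2.67% higher and 4.14% lower, and 4.69% and 5.84% in neutrophil-like cells. These counts depend on the cell calls. In neutrophil-like cells, calls made cell by cell put 2 genes past 1.5-fold higher (*Cxcr4* and *Csf3r*) and 2 lower (*Cxcl1* and *Cxcl3*), and counting cluster 16 put 1 higher (*Cxcr4*) and 3 lower (*Cxcl1*, *Cxcl2* and *Cxcl3*). In the few neutrophil-like cells with 2000 UMIs, all 4 genes with enough UMIs were past it on the higher side (*Cxcl2* and the receptors). In monocyte/macrophage-like cells, *Cxcl3* did not pass with cell by cell calls, equal cluster weights or no upper limits. There *Cxcl1* did not pass with cells thinned to 2000 UMIs. *Csf3* had under 20 UMIs, and was not counted, with cell by cell calls, with that thinning or without the 5 top cells of each library. No test underlies these counts.

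**Figure D3:**
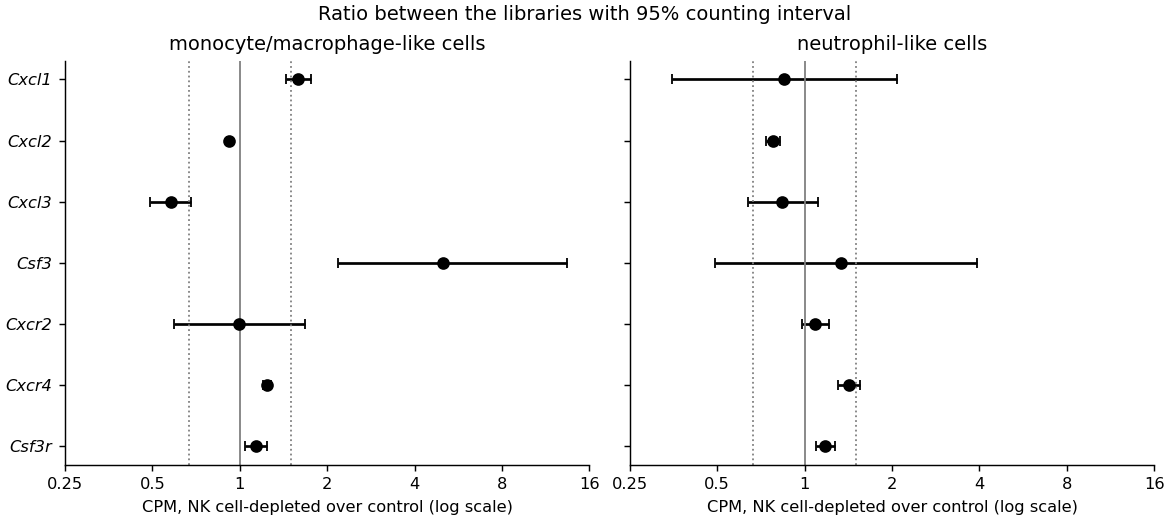
Ratio of CPM, NK cell-depleted over control (log scale), of 7 genes in monocyte/macrophage-like (left) and neutrophil-like (right) cells, with 95% counting intervals; the dotted lines mark 1.5-fold in either direction. *Cxcl1* and *Csf3* lie above the upper line and *Cxcl3* below the lower line on the left, and no gene lies beyond the lines on the right.

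*Cxcr2* was the gene most restricted to neutrophil-like cells, which carried 91.6% of its 620 control UMIs and 93.7% of its 920 UMIs after depletion. Its level in these cells was 1112 CPM in the control (1023 to 1208) and 1210 CPM after depletion (1130 to 1293), a ratio of 1.09 (0.977 to 1.21), within counting error. With cluster 16 counted as neutrophils the log2 ratio was 0.22 (0.067 to 0.37), and with calls made cell by cell 0.58 (0.43 to 0.74), both beyond counting error. A UMI was found in 264 of 372 (71.0%) and 365 of 473 (77.2%) neutrophil-like cells. In monocyte/macrophage-like cells, 0.692% and 0.791% had one, with 42.4% of their 33 control UMIs in 5 cells. Leaving out cells with markers of another class and Scrublet calls took these UMIs from 33 to 19 in the control and from 32 to 24 after depletion. Among the shallower T-like cells, 0 of 288 and 1 of 221 had a *Cxcr2* UMI, and among B-like cells 0 of 56 and 1 of 38. Migratory DC-like cells had 0 of 64 and 0 of 55. The share was 0.845% and 0.800% in conventional DC-like cells and 0.735% in NK-like control cells, close to that of monocyte/macrophage-like cells. Whether the macrophage UMIs are expression, free RNA or doublets was not tested.

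*Csf3r* was carried by both neutrophil-like and monocyte/macrophage-like cells. Neutrophil-like cells had 2072 CPM in the control (1949 to 2201) and 2445 CPM after depletion (2331 to 2562), a ratio of 1.18 (1.09 to 1.27). Their share of all *Csf3r* UMIs was 50.4% in the control and 60.0% after depletion, 56.0% over both libraries, but 11.96% with cells thinned to 2000 UMIs, which leaves out most neutrophil-like cells. Monocyte/macrophage-like cells had 50.3 and 57.3 CPM, a ratio of 1.14 (1.04 to 1.24), but with clusters weighted equally between libraries the log2 ratio turned from 0.19 to -0.14. Among their clusters, that led by *Ace*, *Chil3* and *Cd177* had the highest level, 125 and 138 CPM, and the *Slc7a2* cluster had 10.9 and 7.75 CPM. The *Ccl8* cluster, the 1 cluster beyond counting error, was lower, with 76.0 and 57.7 CPM (0.758, 0.636 to 0.905).

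*Cxcr4* was the receptor that differed beyond counting error in the most clusters. It also had the most UMIs of the receptors, 20811 against 1540 for *Cxcr2* and 5004 for *Csf3r*, so smaller differences pass counting error. Over all cells it had 378 CPM in the control (371 to 386) and 492 CPM after depletion (483 to 501), a ratio of 1.30 (1.26 to 1.34). Neutrophil-like cells had the highest level in both libraries, 1559 CPM (1452 to 1671) and 2221 CPM (2113 to 2334), a ratio of 1.43 (1.31 to 1.55). Monocyte/macrophage-like cells had 378 and 469 CPM (1.24, 1.20 to 1.28). In dendritic cells the ratio was 1.80 (1.57 to 2.07) in conventional DC-like and 1.70 (1.28 to 2.26) in migratory DC-like cells. B-like cells had 700 and 803 CPM, within counting error. T-like cells alone among the named classes were lower, with 372 CPM (326 to 422) and 292 CPM (249 to 341), a ratio of 0.786 (0.640 to 0.964).

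By cluster, *Cxcr4* was higher beyond counting error in 11 of the 14 clusters with at least 50 cells in each library and lower in 1, the T-like cluster. Of the 9 macrophage clusters 8 were higher, from 1.17 (1.04 to 1.31) in the *Gpnmb* cluster, which had the highest control level of them (751 CPM), to 1.76 (1.59 to 1.95) in the *Ccl8* cluster (167 and 294 CPM). Free RNA was gauged in cluster 13, led by *Cyr61*, *Prkg2* and *Cavin2*, where 1 of 52 and 1 of 69 cells had a *Cxcr4* UMI (medians 1761.5 and 2034 UMIs per cell), against 73.9% and 83.9% of neutrophil-like cells. *Ptprc*, which encodes CD45, was found in 7.69% and 7.25% of cluster 13 cells, against 90.9% and 94.7% of neutrophil-like cells. In each library 9 of 12 melanoma markers had 0 UMIs in cluster 13. Whether it holds the added melanoma cells was not tested.

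Immediate early and heat shock genes respond to handling as well as to stimuli. They were higher in sum in monocyte/macrophage-like and neutrophil-like cells, but not each of them. Their summed level, over *Fos*, *Fosb*, *Jun*, *Junb*, *Egr1*, *Atf3*, *Ier2*, *Dusp1*, *Hspa1a* and *Hspa1b*, was 10910 and 13903 CPM in monocyte/macrophage-like cells and 29281 and 34619 CPM in neutrophil-like cells. In T-like cells the sum was 7957 and 8226 CPM (1.03, 0.993 to 1.08). In the *Gpnmb* cluster the sum was lower (0.971, 0.944 to 0.998) while *Cxcr4* was higher. The sum was also lower in the cluster led by *Retnla*, *Lyz1* and *Prelid2* (0.555, 0.462 to 0.665) and higher in cluster 13 (1.95, 1.52 to 2.52). In both of these clusters *Cxcr4* was within counting error. The part of these genes in the *Cxcr4* difference was not tested in any cluster. In monocyte/macrophage-like cells *Jun* was lower (0.872, 0.852 to 0.892) and *Hspa1b* within counting error (0.984). The others were higher there, from 1.06 for *Fosb* to 1.53 for *Dusp1*. In neutrophil-like cells *Fos*, *Fosb*, *Egr1*, *Atf3* and *Ier2* differed by less than counting error (ratios from 0.966 to 1.11). *Junb* and *Dusp1* were higher (1.24 and 1.43), and *Jun* was lower (0.668, 0.553 to 0.806). *Hspa1a* (2.44) and *Hspa1b* (1.74) were also higher, with UMIs in only 11 and 9 cells and 11 and 15 cells.

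The order of cell classes by level differed between the receptors. For *Cxcr2* and *Csf3r*, neutrophil-like cells ranked above cluster 16 and cluster 16 above monocyte/macrophage-like cells in both libraries, without overlap of neighboring intervals among these 3 classes. For *Cxcr4*, B-like cells ranked below neutrophil-like cells in the control and overlapped with cluster 16. Monocyte/macrophage-like, T-like and NK-like control cells lay between 372 and 398 CPM and overlapped. In cluster 16 all 3 receptors were higher after depletion, *Cxcr2* with 6 and 21 UMIs (4.97, 1.94 to 15.05), *Cxcr4* with 33 and 60 (2.58, 1.66 to 4.08) and *Csf3r* with 31 and 63 (2.89, 1.85 to 4.59), while *Cxcl2* and *Cxcl3* were lower. The *Cxcr2* UMIs lay in only 5 of 50 and 7 of 35 cells, and 5 cells held 90.5% of the 21.

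*Cxcr2* and *Cxcr4* were found in the same neutrophil-like cells. With every cell thinned to 500 UMIs, which keeps all 372 and 473 cells, 24.7% of control cells (20.4% to 29.4%) and 31.9% of NK cell-depleted cells (27.7% to 36.3%) had a UMI of both. The share with both that independent receptors would give was 23.6% and 30.2%. *Cxcr2* alone was seen in 19.9% and 18.0%, *Cxcr4* alone in 28.2% and 28.5%, and neither in 27.2% and 21.6%. These 4 pairs of intervals overlap, but no interval was computed for the differences. Without thinning, both were seen in 54.0% and 64.3% of cells.

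**Figure D4:**
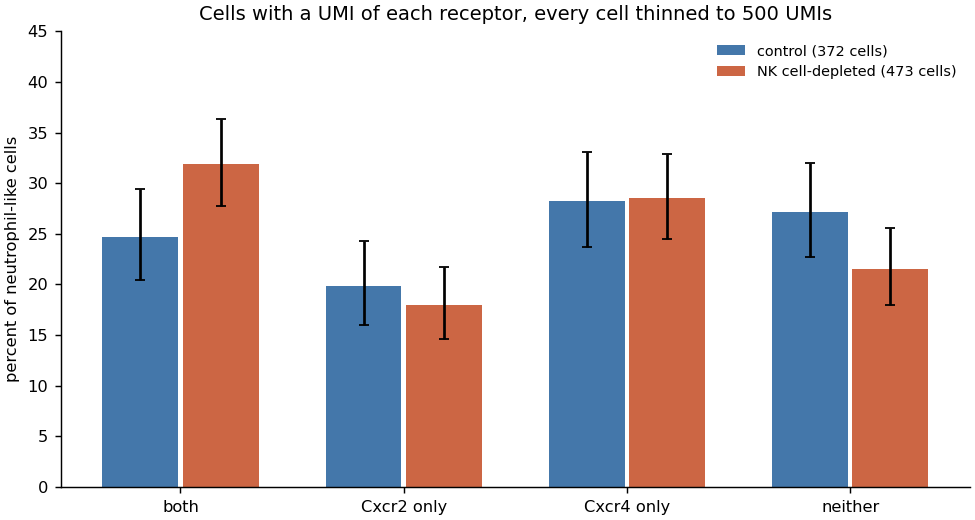
Percent of neutrophil-like cells with a UMI of both receptors, of 1 or of neither, with every cell thinned to 500 UMIs, in the control (blue, 372 cells) and NK cell-depleted (orange, 473 cells) library; bars are 95% exact binomial intervals. Cells with both are 24.7% and 31.9%, and each pair of intervals overlaps, though no interval was computed for the differences.

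The shares of the cell classes and the levels within classes entered the whole-library values of these genes unequally. Shares of all classes were exchanged together, so the ratios from shares are not for neutrophils alone. Per cell, *Cxcr2* UMIs were 1.74 times the control. The class shares of the NK cell-depleted library with the control's levels gave 1.44, and the control's shares with the levels of the NK cell-depleted library gave 1.22. For *Csf3r* the observed ratio was 1.62, with 1.27 from the shares and 1.28 from the levels. For *Cxcl1* the observed ratio was 1.84, with 1.07 from the shares and 1.70 from the levels, and for *Cxcr4* it was 1.43, with 1.04 and 1.34. For *Cxcl2* the shares (1.09) and the levels (0.951) went in opposite directions around an observed 1.04, as they did for *Cxcl3* (1.09 and 0.645 around 0.736). For the few UMIs of *Csf3* the observed ratio was 3.45, with 1.22 from the shares and 2.97 from the levels. These ratios count UMIs per cell and so include the difference in mean depth, 4688 and 5159 UMIs per cell. Classes with under 20 cells in a library were given the level of the other library.

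**Figure D5:**
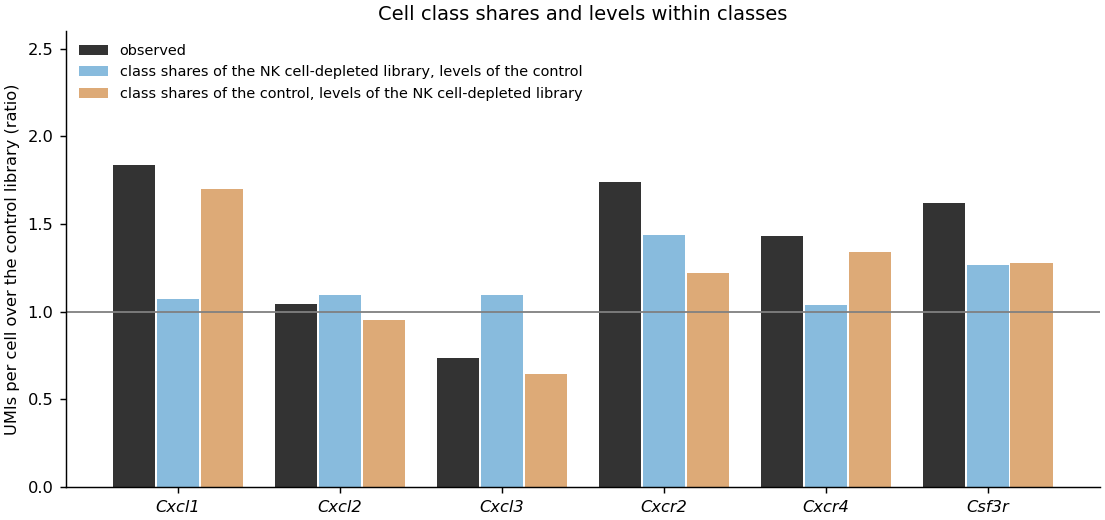
UMIs per cell of 6 genes as a ratio to the control library (bars from 0): as observed (dark), with the NK cell-depleted class shares and control levels (blue), and with control class shares and NK cell-depleted levels (tan). The blue bar exceeds the tan bar for *Cxcr2* (1.44 and 1.22), whereas for *Cxcl1* the tan bar is the taller (1.70 and 1.07).

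The genes most like each member over 32 profiles (clusters of each library with at least 50 cells) were named by Pearson's r of log2(CPM + 5) among 9521 genes. Profiles of a library share its depth and free RNA, so r is a description. *Cxcl1* was most like *Lipa* (0.82), *Gdf15* (0.75) and *Egr2* (0.75), and *Cxcl2* most like *Ccrl2* (0.92), *Clec4e* (0.88) and *Ccr1* (0.88). *Cxcl3* was most like *Il1a* (0.90), *AC110211.1* (0.89) and *Ptgs2os2* (0.88). Among the receptors, *Cxcr2* was most like the neutrophil genes *Lcn2* (0.97), *Stfa2l1* (0.95) and *S100a8* (0.95), *Csf3r* like *Fpr2* (0.95), *Slfn4* (0.91) and *Trem3* (0.90), and *Cxcr4* like *Sf3b1* (0.87), *Rgs2* (0.87) and *Sik1* (0.86).

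Other genes of the same pathways were read from a list of 37. In monocyte/macrophage-like cells 32 had at least 20 UMIs, of which 2 were higher and 2 lower by at least 1.5-fold. Of all 11810 genes with as many UMIs there, 3.76% were higher and 8.16% lower by as much. The median log2 ratio was 0.18 against 0.01 over all genes. *Ppbp*, another CXCR2 ligand best known from platelets, was lower, with 265 UMIs (13.8 CPM) in 72 cells and 68 UMIs (3.65 CPM) in 35 cells, while 6 platelet marker genes summed to 1.25 and 0.644 CPM. *Il6*, an inflammatory cytokine, was higher (23.9 and 36.7 CPM, 1.53, 1.36 to 1.73). *Cxcl12*, the CXCR4 ligand, had 8 and 16 UMIs, within counting error (2.06, 0.830 to 5.55). *Mif*, which also binds CXCR4, had 740 and 510 CPM (0.689). The 6 regulators of chemokine genes and transcripts, *Nfkb1*, *Rela*, *Nfkbia*, *Nfkbiz*, *Zc3h12a* and *Zfp36*, had log2 ratios from 0.34 to 0.56 with a median of 0.44. *Zfp36*, which promotes decay of cytokine transcripts, had 1397 and 2050 CPM (1.47, 1.45 to 1.49). *Il1b* (1479 and 1578 CPM) and *Tnf* (62.8 and 70.0 CPM), which induce these chemokines, had ratios of 1.07 and 1.11.

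In neutrophil-like cells 29 of the 37 had at least 20 UMIs, of which 2 were higher and 5 lower by at least 1.5-fold. Of all 5250 genes with as many UMIs there, 10.3% were higher and 11% lower by as much. The median log2 ratio was -0.04 against 0.02 over all genes. The formyl peptide receptors *Fpr1* (74.4 and 128 CPM, 1.72, 1.16 to 2.58) and *Fpr2* (225 and 361 CPM, 1.60, 1.28 to 2.01), which sense bacterial and mitochondrial peptides, were higher. *Tnf* (0.609, 0.411 to 0.900), *Il1a* (0.453, 0.200 to 0.982) and *Mif* (0.626, 0.484 to 0.808) were lower. *Il6* had 69 UMIs, all in 4 control cells, and 0 after depletion, at most 0.0312 of the control against the floor of 3 UMIs. *Cebpa* had 11 and 10 UMIs (0.651, 0.248 to 1.69). *Il1b* had 24459 and 23756 CPM (0.971, 0.949 to 0.994), and *Cebpb*, a transcription factor of emergency granulopoiesis, was higher (1.39, 1.32 to 1.45).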

How the data were processed

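The authors deposited UMI counts per gene and cell for each library, as whole-number counts from Cell Ranger. The headers of the count files name version 3.0.2, the study's methods name another release, and the submitters' processing notes name build mm10. The authors' table of normalized values was not used. Cells were kept at 500 to 15000 UMIs, 200 to 4000 detected genes and a mitochondrial share of up to 10%, after the study's methods. Values of log2(CPM + 1) for 2000 variable genes, with the 8 genes and their pathway list left out, gave 15 principal components, a graph of 20 neighbors and Leiden clusters at resolution 1 (leidenalg 0.10.2, igraph 0.11.9, scikit-learn 1.9.0, scipy 1.17.1). Clusters were named from marker lists without the receptors, and 3 stayed unnamed.

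Counts were summed by class and library. Groups came from the sample titles. Intervals are exact Poisson for CPM, exact (Clopper-Pearson) binomial for shares and exact conditional binomial for ratios. They cover counting error only. Log2 ratios used 0.5 UMI as prior, and a gene with at least 20 UMIs was read as past 1.5-fold. Against a count of 0 a floor of 3 UMIs per library was used. The text names all 8 genes, pathway genes from a list, and the 3 genes most like each gene with at least 100 UMIs. Members and lists were chosen with earlier results of these data known. Scrublet (scanpy 1.11.5, expected rate 5%) called 0 and 3 doublets, too few to rely on, so doublets were kept. The ratio step was tested on simulated counts. Alternatives were other clusterings and cell calls, thinning, limits, weights and scalings.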

Additional observations from a re-analysis of the deposited data

Results flagged for a closer look

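*Cxcr4* differed in opposite directions between classes of cells, beyond counting error in each, and the difference between classes was not tested. The ratio, NK cell-depleted over control, was 1.24 in monocyte/macrophage-like, 1.43 in neutrophil-like, 1.80 in conventional DC-like and 1.70 in migratory DC-like cells and 2.58 in cluster 16, but 0.786 in T-like cells.

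Cells that the filter leaves out carried the ligands as well. In the 212 control and 353 NK cell-depleted cells above the upper limits on UMIs or genes, *Cxcl1* had 56 UMIs (9.29 CPM) and 325 UMIs, a ratio of 3.57 (2.68 to 4.82). In the same cells *Cxcl3* had 10 and 62 UMIs, a ratio of 3.81 (1.94 to 8.33), opposite to its direction in filtered monocyte/macrophage-like cells, and *Cxcl2* a ratio of 1.17 (1.11 to 1.23). Most of these cells, 118 and 244, fell in an unnamed cluster led by *Hmga2*, *Prkg2* and *Cavin2*, which held 71.3% and 79.2% of the UMIs. The 80 and 102 of them that were monocyte/macrophage-like held 54 and 325 *Cxcl1* UMIs (4.64, 3.47 to 6.31), 9 and 61 *Cxcl3* UMIs (5.23, 2.58 to 11.97) and 2093 and 3995 *Cxcl2* UMIs (1.47, 1.40 to 1.55). In the 611 and 677 cells that failed another limit, *Cxcl1* had 6 and 29 UMIs, a ratio of 3.02 (1.23 to 8.91).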

How the results depend on the processing

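No paired analysis was possible because each group is 1 library. No melanoma-like cluster was named, so only NK-like cells were left out of the denominator. The cell share ratio stayed within its interval under 9 of 10 alternatives and was 2.70 with cells thinned to 2000 UMIs, which keeps 14 and 33 neutrophil-like cells. In neutrophil-like cells, that thinning gave log2 ratios of 0.70 for *Cxcl2* (opposite in direction), 1.66 for *Cxcr2*, 0.90 for *Cxcr4* and 0.95 for *Csf3r*, and in monocyte/macrophage-like cells -0.19 for *Cxcl2* and 0.37 for *Cxcr4*. Calls made cell by cell gave -0.53 for *Cxcl2*, 0.58 for *Cxcr2*, 0.79 for *Cxcr4* and 0.64 for *Csf3r* in neutrophil-like cells, and 0.95 for *Cxcl1*, -0.088 for *Cxcl2* and -0.42 for *Cxcl3* in monocyte/macrophage-like cells. Without upper limits, *Cxcl1* was 0.91, *Cxcl2* -0.051 and *Cxcl3* -0.48 in monocyte/macrophage-like cells. With equal cluster weights, *Cxcl1* was 0.84, *Cxcl2* -0.087, *Cxcl3* -0.18, *Cxcr4* 0.49 and *Csf3r* -0.14 (opposite in direction) there. With cluster 16 counted as neutrophil-like, an alternative chosen after seeing the data, as were leaving out cluster 19 and the highest Scrublet scores, *Cxcl2* was -0.62. Shares of a gene's UMIs moved under 45 of 84 alternatives, most with cell by cell calls and thinning. The causes were not tested. With at least 100 UMIs per gene, 2.67% of genes were higher and 4.14% lower by 1.5-fold in monocyte/macrophage-like cells, and 4.69% and 5.84% in neutrophil-like cells. Few UMIs limit *Cxcl5*, *Csf3* and *Cxcl1* outside macrophages.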
